A study of Mus musculus with 8 samples.

Results

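Imprinted genes were followed in the whole brains of mid-gestation wild-type (WT) mouse embryos (E14.5). The list held 43 genes taken by name from a table of 33971 genes, and the largest total count was to be used where a name stood on more than one identifier, which occurred for 0 of them. By name, 42 were found. *Nespas* was found by its Ensembl identifier, ENSMUSG00000086537, under the name *Gnasas1*. After the removal of genes with too few reads, 42 of the 43 were tested, among 19367 genes in all, and *Phlda2* was left out.

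The brains came from 2 groups of 4 WT embryos each. Dams of the CDD group received a choline-deficient diet, and dams of the ND group received normal chow. The sources differ on the start of the CDD, which is given as the day of mating or as 2 weeks before it. Polyadenylated RNA of each brain was sequenced in bulk. The numbers of dams and litters were not stated, so p-values measure the spread between these brains.

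An imprinted gene is transcribed mainly from the copy inherited from one parent. The silent and the active copy are told apart by DNA methylation laid down in the egg or the sperm at imprinting control regions, and this mark is copied at each cell division. Choline is oxidized to betaine, a methyl donor for the synthesis of methionine. Imprinted genes are known for their roles in fetal growth, in the placenta and in the developing brain, where neurons of the hypothalamus and midbrain express many of them. The counts used here sum both parental copies, and neither methylation nor the parental origin of a read was measured.

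By the parent whose copy is generally active, the list held 24 paternally expressed genes, 13 maternally expressed genes and 6 genes (*Grb10*, *Ddc*, *Gnas*, *Inpp5f*, *Blcap* and *Ppp1r9a*) whose active copy depends on the tissue or the transcript. Of these, 24, 12 and 6 were tested. The paternally expressed genes were *Igf2*, *Dlk1*, *Rtl1*, *Dio3*, *Peg3*, *Usp29*, *Peg10*, *Sgce*, *Plagl1*, *Ndn*, *Magel2*, *Snrpn*, *Peg12*, *Mest*, *Nnat*, *Zdbf2*, *Impact*, *Kcnq1ot1*, *Airn*, *Peg13*, *Nespas*, *Mcts2*, *Rasgrf1* and *Zrsr1*. The maternally expressed genes were *H19*, *Meg3*, *Rian*, *Mirg*, *Zim1*, *Asb4*, *Calcr*, *Ube3a*, *Igf2r*, *Phlda2*, *Slc22a18*, *H13* and *Commd1*.

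Between 31770217 and 43121170 reads were counted on genes in each brain. Counts of any 2 brains of the same diet differed by more than sampling noise, since chi-square over its degrees of freedom ranged from 3.76 to 22.5. *Xist*, the transcript of the inactive X chromosome, was above 100 CPM (the reads of a gene standardised to a common library size) in 2 CDD brains and 1 ND brain, so the sexes were not balanced. CDD replicate 2 stood apart in its Hox genes, which mark hindbrain and spinal cord, with a sum of 144 CPM over 28 genes, against 0.468 to 3.38 CPM in the other brains, and 0 of these genes passed the filter on low counts. Over 7 markers of neural progenitors the summed level was 1403 to 1545 CPM in CDD brains and 1252 to 1344 CPM in ND brains. Over 6 markers of neurons it was 5521 to 6188 and 5602 to 5817 CPM. Transcripts of progenitors and neurons were thus present in every brain, but these sums do not show which brain regions each sample held. Of the progenitor markers, *Pax6*, *Vim* and *Nes* were higher in CDD brains, and of the neuron markers *Snap25* was lower. No marker of any list was at 0 in all brains.

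To compare the diets, edgeR's quasi-likelihood test was fitted to the whole table, with Benjamini-Hochberg adjustment over all 19367 genes and 0.05 as the threshold for the adjusted p-value. Of the 42 imprinted genes tested, 10 (23.8%) passed this threshold, where 8.83% of all genes did. Higher in CDD brains were 8 (background 4.24%) and lower were 2 (background 4.59%). At an unadjusted p-value under 0.05 there were 15, where the share over all genes was 23.9%. The CPM of the 4 CDD brains and of the 4 ND brains did not overlap for 12 imprinted genes, with CDD above for 10 and below for 2, and 15.0% of all genes had no overlap. Imprinted genes were well expressed in these brains. With the mean over brains required to reach 5 CPM, 10 of 38 imprinted genes (26.3%) and 12.5% of all genes were past the threshold, and 12 (31.6%) and 19.7% had no overlap. The number past the threshold was 6 of the imprinted genes without ND replicate 3 and likewise without ND replicate 4. Calls over all genes fell in these fits too, from 1710 to 471 of 19636 and to 615 of 19637.

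No common direction ran through the list. The log2 fold change of CDD over ND was above 0 for 21 imprinted genes and below 0 for 21, where 49.1% of all genes were above 0, and it lay between -0.72 for *Rasgrf1* and 0.60 for *Peg12*. The median over all genes tested was -0.0038. Of 24 paternally expressed genes, 6 were higher in CDD brains (*Peg12*, *Mest*, *Peg10*, *Kcnq1ot1*, *Plagl1* and *Dlk1*), 1 was lower (*Rasgrf1*), 17 did not pass the test, and the median was 0.01. Of 12 maternally expressed genes, 1 was higher (*Asb4*), 1 was lower (*Meg3*), 10 did not pass, and the median was -0.01. Of the 6 genes with a tissue- or transcript-dependent active copy, 1 was higher (*Grb10*), 5 did not pass, and the median was -0.02. Both parental classes thus held genes that moved each way, and whether the classes differed in their share of genes past the threshold was not tested.

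**Figure D1:**
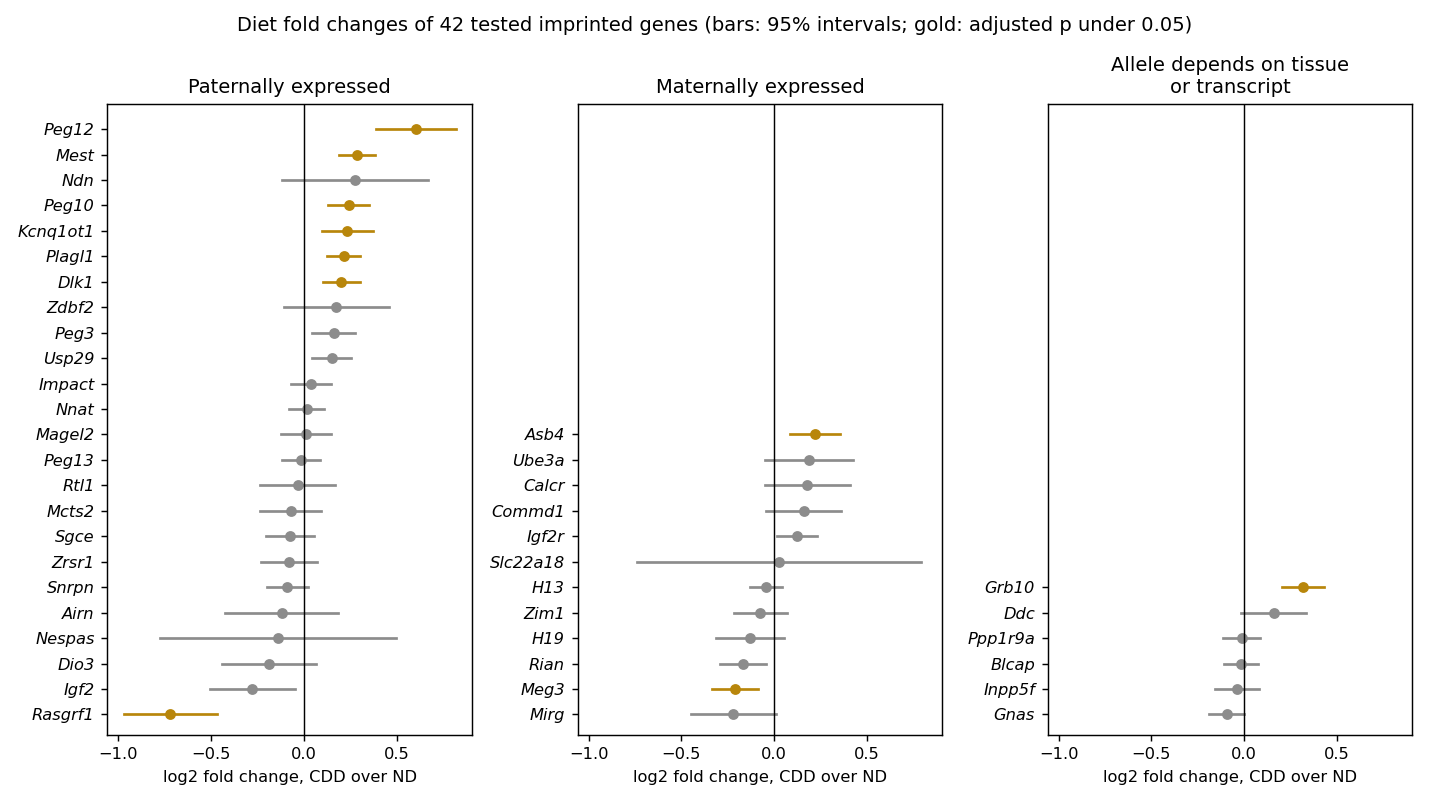
Log2 fold change (CDD over ND) on the horizontal axis for each of the 42 tested imprinted genes, in 3 panels by active parental copy, with points for estimates, bars for 95% intervals and gold for an adjusted p-value under 0.05. The 10 gold genes are 8 with intervals right of 0 and 2 (*Rasgrf1* and *Meg3*) with intervals left of 0, and most grey intervals cross 0.

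Among the paternally expressed genes, *Mest* (chr6:30723546-30748464) had the smallest p-value. It encodes a protein of the alpha/beta hydrolase fold family and is a growth-promoting gene of mesoderm and brain. Gene positions are those listed by the authors, on a genome build that is not given in the sources used here. The CPM of *Mest* was 193, 172, 169 and 187 in CDD replicates 1 to 4 and 151, 149, 145 and 146 in the ND brains, with means of 180.5 ± 11.5 and 148 ± 2.55 (SD, n = 4 each). The lowest CDD brain exceeded the highest ND brain, with a log2 fold change of 0.29 (SE 0.0460, adjusted p = 0.00153 in edgeR). *Mest* overlaps *Copg2* on the opposite strand, and *Copg2* had a log2 fold change of 0.14 in edgeR (adjusted p = 0.165).

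*Plagl1* (chr10:12936248-13007438) encodes a zinc finger transcription factor that regulates other imprinted genes. Its CPM was 151, 139, 139.7 and 150.1 in CDD brains and 122, 131, 122 and 125 in ND brains. There was no overlap, and the log2 fold change was 0.21 (SE 0.0422, adjusted p = 0.00475 in edgeR). *Peg10* (chr6:4747306-4760517), a gene derived from a retrotransposon and needed in the placenta, showed 269, 260.2, 249 and 299.5 CPM in CDD brains and 222, 232, 227 and 231 CPM in ND brains. The ND brains were within a narrow range below the lowest CDD brain, and the log2 fold change was 0.24 (SE 0.0520, adjusted p = 0.00819 in edgeR). *Mest*, *Plagl1* and *Peg10* stayed past the threshold with any 1 of the 8 brains left out.

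*Dlk1* (chr12:109418749-109429262) encodes a transmembrane protein with EGF-like repeats that acts on Notch signaling and on adult neural stem cells. Its CPM was 89.7, 89.0, 84.4 and 89.7 in CDD brains and 76.4, 82.8, 73.0 and 74.3 in ND brains, so the lowest CDD brain lay just above the highest ND brain. The log2 fold change was 0.20 (SE 0.0466, adjusted p = 0.0120 in edgeR), and the adjusted p-value was 0.0767 without ND replicate 3 and 0.0630 without ND replicate 4. *Kcnq1ot1* (chr7:142757195-142850286), a long noncoding RNA that silences its neighbours on the paternal chromosome, was at 31.0, 32.4, 28.8 and 36.2 CPM in CDD brains and at 27.8, 26.9, 26.9 and 27.3 CPM in ND brains. Its CDD brains were all above the ND brains, by a log2 fold change of 0.24 (SE 0.0658, adjusted p = 0.0327 in edgeR), but of the 8 fits that left out a brain, those without CDD replicate 1 and without CDD replicate 3 kept the call of *Kcnq1ot1*. Leaving out CDD replicate 2, CDD replicate 4 or any ND brain gave an adjusted p-value between 0.0645 and 0.118, with a log2 fold change of 0.17 without CDD replicate 4. *Kcnq1ot1* lies within *Kcnq1* on the opposite strand. Whether the counting used strand was not stated, so reads of such partners cannot be told apart.

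The paternally expressed genes with the largest differences were low in abundance. *Peg12* (chr7:62111619-62114258, also called Frat3), a member of the Frat family of GSK3-binding proteins in Wnt signaling, had 19.7, 20.7, 17.7 and 26.2 CPM in CDD brains and 14.9, 14.7, 12.98 and 12.9 CPM in ND brains. Its CDD brains were all higher, with a log2 fold change of 0.60 (SE 0.102, adjusted p = 0.00287 in edgeR). *Rasgrf1* (chr9:89791961-89909030) encodes an exchange factor that activates Ras in neurons and affects postnatal growth. It had 9.90, 9.997, 13.1 and 8.54 CPM in CDD brains and 15.6, 15.6, 19.95 and 17.5 CPM in ND brains. Every CDD brain was below every ND brain, with a log2 fold change of -0.72 (SE 0.117, adjusted p = 0.00287 in edgeR). *Peg12* and *Rasgrf1* kept their calls in all 8 fits that left out a brain, with log2 fold changes of 0.48 to 0.68 and of -0.86 to -0.64.

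Of the maternally expressed genes, *Asb4* (chr6:5383386-5433022) encodes an ankyrin repeat and SOCS box protein of ubiquitin ligases, found in the hypothalamus and in developing vessels. It was at 21.3, 23.6, 20.3 and 23.1 CPM in CDD brains and at 18.3, 18.9, 19.4 and 18.96 CPM in ND brains, with no overlap and a log2 fold change of 0.22 (SE 0.0656, adjusted p = 0.0417 in edgeR). The adjusted p-value of *Asb4* was 0.0162 without CDD replicate 3 and between 0.0529 and 0.125 without any 1 of the other 7 brains. *Meg3* (chr12:109506879-109538165) is an abundant long noncoding RNA of neurons. It was at 2339, 2288, 2357 and 1930.5 CPM in CDD brains and at 2507, 2464, 2702 and 2631 CPM in ND brains. All CDD brains were lower, with CDD replicate 4 far below the other 3, and the log2 fold change was -0.21 (SE 0.0598, adjusted p = 0.0356 in edgeR). Without CDD replicate 4 it was -0.15 (adjusted p = 0.0176 in edgeR), and the call of *Meg3* was lost without any 1 of the ND brains, with adjusted p-values of 0.0560 to 0.174. The maternally expressed genes past the threshold thus numbered 0 without ND replicate 1, 2, 3 or 4, and 1 without CDD replicate 1 or CDD replicate 4.

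*Grb10* (chr11:11880508-11988683) encodes an adaptor that dampens signaling from the insulin and IGF1 receptors. It is transcribed from the paternal copy in neurons and from the maternal copy in most other tissues. Its CPM was 280.1, 268, 249 and 297 in CDD brains and 227, 231.5, 209.5 and 209 in ND brains. The diets did not overlap, the log2 fold change was 0.32 (SE 0.0543, adjusted p = 0.00221 in edgeR), and the call was kept with any brain left out. *Ddc*, the neighbour of *Grb10*, encodes the decarboxylase that makes dopamine and serotonin, and had a log2 fold change of 0.16 in edgeR (adjusted p = 0.254).

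The summed levels of markers of other cell types were set beside these differences, without a test of the sums. Those of the hypothalamus and of the neural progenitors did not overlap between the diets, and those of the other lists did. Markers of the hypothalamus summed to 96.9 to 103 CPM in CDD brains and 82.6 to 90.6 CPM in ND brains, with *Otp*, *Sim1* and *Nkx2-1* higher, *Avp* lower and 4 of 5 past the threshold. Markers of meningeal fibroblasts summed to 470 to 523 and 499.5 to 601 CPM, with *Col1a1*, *Col1a2* and *Slc6a13* lower and *Lum* higher among 8. Markers of endothelial cells summed to 241 to 256 and 255 to 269 CPM, and 1 of 6, *Cldn5*, was lower (log2 fold change -0.28, adjusted p = 0.00768 in edgeR). Markers of mural cells summed to 151 to 162 and 162 to 177 CPM, and 1 of 5, *Rgs5*, was lower (log2 fold change -0.18, adjusted p = 0.0268 in edgeR). Those of the choroid plexus summed to 189 to 507 and 288 to 330.4 CPM with 0 of 6 past the threshold and 3 at an unadjusted p-value under 0.05. Erythroid markers summed to 759 to 1416 and 823 to 2983 CPM. Of these 8, the embryonic globin genes *Hbb-y* and *Hba-x* were higher in CDD brains, with log2 fold changes of 2.24 and 1.67 (adjusted p = 0.00651 and 0.0208 in edgeR). The log2 fold change was below 0 for 5 of the 8, none of which passed the test, and the median of the list was -0.56. Pituitary markers summed to 1.39 to 1.87 and 0.983 to 1.75 CPM over the 3 of 4 that were found. The part of cell composition in the differences of the imprinted genes was not tested, and in bulk RNA fewer cells of a type and less RNA per cell cannot be told apart.

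**Figure D2:**
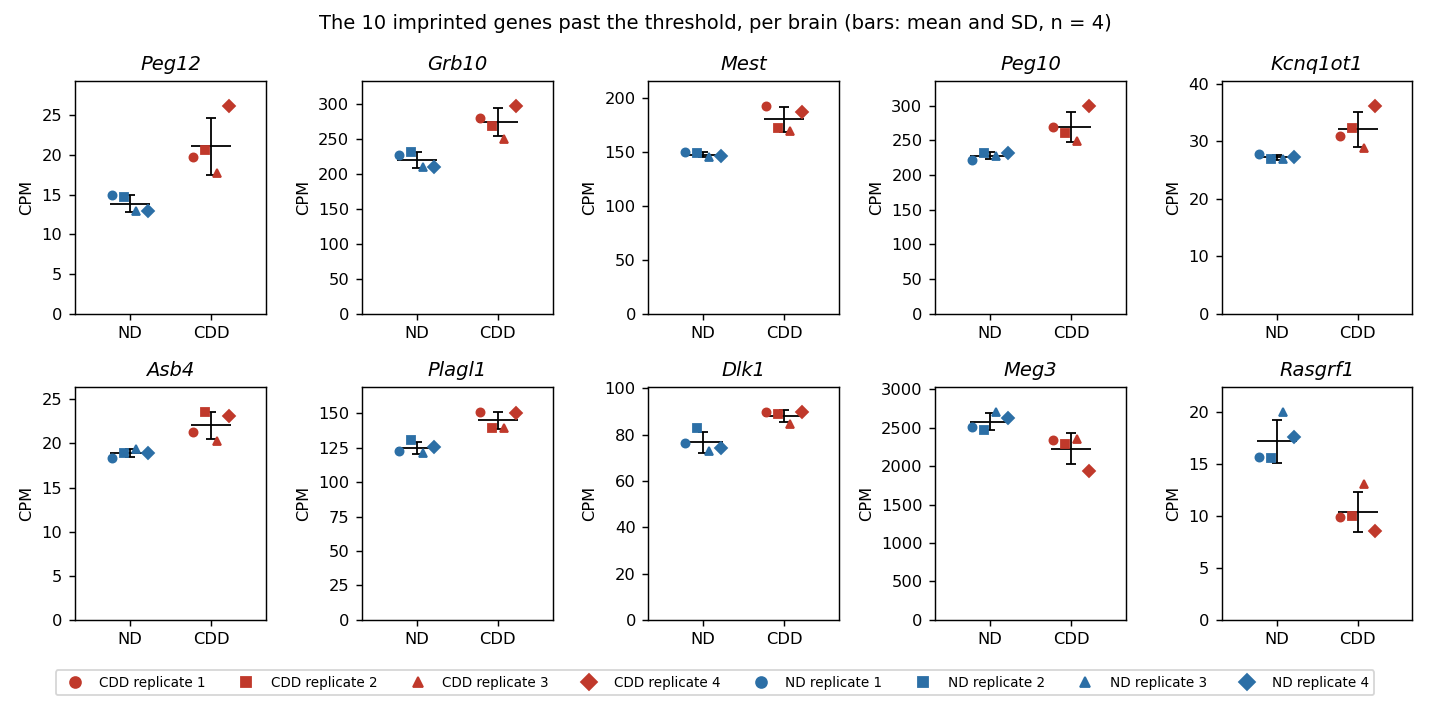
CPM on a linear axis from 0 for each of the 10 imprinted genes past the threshold, with 1 symbol per brain (ND left in blue, CDD right in red, symbol shape for the replicate number) and bars for the mean and SD of 4 brains. In every panel the CDD symbols are all above the ND symbols, or all below them for *Meg3* and *Rasgrf1*, and CDD replicate 4 is often the outermost brain.

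The promoters of imprinted genes that differed are shown to let the sequence be read beside the change. RefSeq windows of 300 bases, from 250 before to 50 after each transcript start on GRCm38.p6, were available for 36 of the 43 genes. They were not available here for *Rtl1*, *Peg10*, *Peg13*, *Impact*, *Sgce*, *H19* and *Nespas*. Each window was searched on both strands for TGCCGC (reverse complement GCGGCA), the hexamer that the zinc finger protein ZFP57 binds when it is methylated and through which it keeps imprints. The hexamer was in 11.6% of all 32851 windows and in 13 of 55 windows of imprinted genes (23.6%). By gene, it was in a window of 12 of 36 imprinted genes (33.3%) and of 13.1% of all genes with windows, among them 7 of 18 paternally expressed, 4 of 12 maternally expressed and 1 of 6 of the others. It was in a window of 4 of the 9 genes past the threshold that had windows (*Mest*, *Plagl1*, *Grb10* and *Meg3*) and not in those of *Asb4*, *Dlk1*, *Kcnq1ot1*, *Peg12* and *Rasgrf1*. The hexamer holds a CG pair, and these shares were not matched for the number of CG pairs or of windows per gene. A match describes letters only, since neither binding nor methylation was measured. The windows of the 4 genes with the hexamer are printed first, then those of *Peg12* and *Rasgrf1*, the genes with the largest rise and the largest fall. The windows lie at chr6:30737800-30738099 on the plus strand (*Mest*), chr10:13090582-13090881 on the plus strand (*Plagl1*), chr11:12037371-12037670 on the minus strand (*Grb10*), chr12:109540746-109541045 on the plus strand (*Meg3*), chr7:62464461-62464760 on the minus strand (*Peg12*) and chr9:89909525-89909824 on the plus strand (*Rasgrf1*). Capitals mark the hexamer.
Mest: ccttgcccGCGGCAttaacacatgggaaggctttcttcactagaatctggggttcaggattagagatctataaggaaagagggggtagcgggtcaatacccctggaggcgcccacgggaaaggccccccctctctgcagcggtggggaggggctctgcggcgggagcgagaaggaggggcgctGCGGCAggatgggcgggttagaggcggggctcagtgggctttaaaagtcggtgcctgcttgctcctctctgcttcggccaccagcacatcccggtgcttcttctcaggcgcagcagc
Plagl1: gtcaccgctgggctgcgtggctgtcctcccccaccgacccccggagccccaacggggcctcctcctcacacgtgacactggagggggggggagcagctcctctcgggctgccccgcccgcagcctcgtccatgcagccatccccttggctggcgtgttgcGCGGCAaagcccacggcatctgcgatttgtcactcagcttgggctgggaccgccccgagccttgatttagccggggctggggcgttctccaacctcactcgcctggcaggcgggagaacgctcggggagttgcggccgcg
Grb10: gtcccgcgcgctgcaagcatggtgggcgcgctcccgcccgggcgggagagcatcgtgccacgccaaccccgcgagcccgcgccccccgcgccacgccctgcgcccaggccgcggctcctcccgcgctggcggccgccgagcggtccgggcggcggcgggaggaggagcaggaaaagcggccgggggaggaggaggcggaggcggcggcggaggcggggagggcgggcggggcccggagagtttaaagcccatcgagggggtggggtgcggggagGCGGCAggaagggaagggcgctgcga
Meg3: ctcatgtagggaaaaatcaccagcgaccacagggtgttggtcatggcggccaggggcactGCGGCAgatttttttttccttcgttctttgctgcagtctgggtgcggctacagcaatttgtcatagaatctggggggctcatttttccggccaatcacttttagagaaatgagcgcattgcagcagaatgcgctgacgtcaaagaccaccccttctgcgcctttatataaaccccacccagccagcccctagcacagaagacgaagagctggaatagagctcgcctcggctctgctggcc
Peg12: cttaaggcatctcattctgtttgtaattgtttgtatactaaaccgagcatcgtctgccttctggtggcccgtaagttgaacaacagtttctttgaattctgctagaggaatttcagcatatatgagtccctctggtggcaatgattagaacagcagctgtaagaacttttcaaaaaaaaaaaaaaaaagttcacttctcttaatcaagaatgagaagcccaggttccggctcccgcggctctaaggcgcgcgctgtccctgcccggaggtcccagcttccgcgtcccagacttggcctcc
Rasgrf1: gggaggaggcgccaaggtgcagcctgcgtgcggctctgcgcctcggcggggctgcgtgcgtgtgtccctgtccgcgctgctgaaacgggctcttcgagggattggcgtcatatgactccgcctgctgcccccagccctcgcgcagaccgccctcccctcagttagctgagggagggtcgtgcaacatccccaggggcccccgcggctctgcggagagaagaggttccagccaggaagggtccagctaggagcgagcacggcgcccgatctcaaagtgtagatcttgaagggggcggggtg
The hexamer occurred 2 times in the *Mest* window and 1 time each in those of *Plagl1*, *Grb10* and *Meg3*. The printed windows differed in their number of CpG dinucleotides, the sites of DNA methylation, with 45 in *Grb10*, 26 in *Plagl1*, 26 in *Rasgrf1*, 17 in *Mest*, 13 in *Meg3* and 12 in *Peg12*. Where a gene had several windows, the one with the most hexamers, then the most CpG, was printed. The windows not printed had 9 CpG in *Grb10*, 1 in *Meg3*, and 8 and 17 in *Mest*. The median was 14 over the windows of imprinted genes and 7 over all windows.

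Within the *Dlk1*-*Dio3* domain of chromosome 12, the paternally expressed *Dlk1* was higher and the maternally expressed *Meg3* lower in CDD brains, while the other 4 genes did not pass the test. *Rian* and *Mirg*, noncoding transcripts downstream of *Meg3* that carry snoRNAs and microRNAs, had log2 fold changes of -0.17 in edgeR (adjusted p = 0.0866) and -0.22 (adjusted p = 0.232 in edgeR). *Rian* was at 578, 567, 557 and 474 CPM in CDD brains and at 614, 577, 615 and 638 CPM in ND brains. *Mirg* was at 22.5, 18.4, 21.0 and 14.4 CPM in CDD brains and at 23.3, 22.6, 21.3 and 21.7 CPM in ND brains. *Meg3*, *Rian* and *Mirg* all had their lowest level in CDD replicate 4. *Rtl1*, a retrotransposon-derived gene needed in the placenta, had a log2 fold change of -0.03, and *Dio3*, the deiodinase that inactivates thyroid hormone, of -0.19 (adjusted p = 0.879 and 0.378 in edgeR).

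In the domain of chromosome 7 that corresponds to the region of Prader-Willi and Angelman syndromes, *Peg12* was higher in CDD brains, and *Ndn*, *Magel2*, *Snrpn* and *Ube3a* did not pass the test. *Ndn*, or necdin, a MAGE family protein of postmitotic neurons, was at 585, 655, 606.5 and 599.5 CPM in CDD brains and at 415, 604.5, 393 and 607 CPM in ND brains. ND replicates 1 and 3 were thus far below the other 6 brains, and the coefficient of variation of *Ndn* among ND brains, 23.1%, was at the 85.4th percentile of all genes tested. Its log2 fold change was 0.28 (SE 0.165, adjusted p = 0.379 in edgeR). *Magel2*, its MAGE family neighbour, ranged over 80.1 to 99.8 CPM in CDD brains and 85.2 to 92.8 CPM in ND brains, and its ND replicates 1 and 3, at 86.4 and 92.8 CPM, did not stand apart. *Snrpn*, which encodes the neuronal spliceosomal protein SmN, was at 122, 143, 127 and 115 CPM in CDD brains and at 135, 131, 134 and 139 CPM in ND brains (log2 fold change -0.09, adjusted p = 0.341 in edgeR). *Ube3a*, a ubiquitin ligase with maternal expression in neurons, was at 119, 131, 109 and 155.5 CPM in CDD brains and at 119.5, 115, 108 and 108 CPM in ND brains (log2 fold change 0.19, adjusted p = 0.324 in edgeR). Its CDD and ND brains overlapped, and CDD replicate 4 was the highest.

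**Figure D3:**
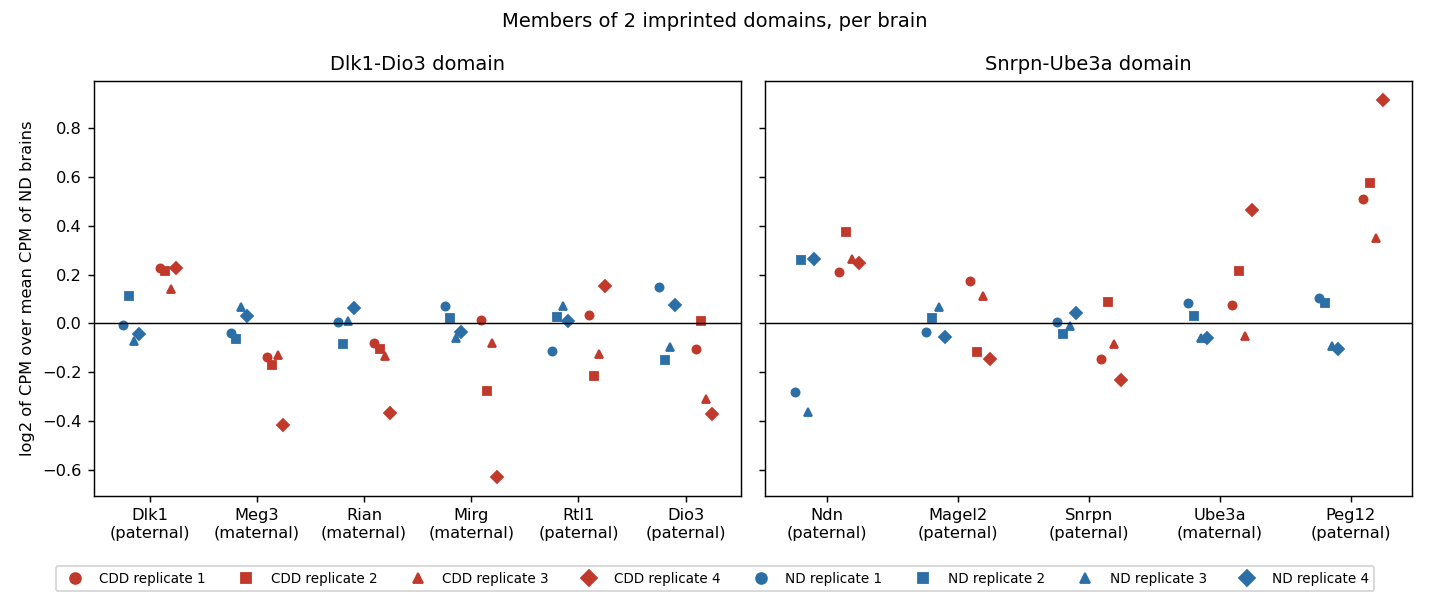
Log2 of the CPM over the mean CPM of the ND brains, on the vertical axis, for the genes of the *Dlk1*-*Dio3* domain (left) and of the *Snrpn*-*Ube3a* domain (right), with 1 symbol per brain (ND blue, CDD red, shape for the replicate number). *Meg3*, *Rian* and *Mirg* are lowest in CDD replicate 4, *Dlk1* and *Peg12* are above ND in all 4 CDD brains, and *Ndn* is low in ND replicates 1 and 3.

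In the *Peg3* domain of chromosome 7, 2 paternally expressed genes had no overlap between the diets without passing the test. *Peg3*, a zinc finger protein that affects growth and maternal behaviour, was at 374, 393, 377 and 442 CPM in CDD brains and at 338, 366, 355 and 359 CPM in ND brains, and the log2 fold change was 0.16 in edgeR (adjusted p = 0.0748, and 0.0499 without CDD replicate 3). *Usp29*, a deubiquitinating enzyme whose gene starts beside *Peg3* on the other strand, ranged over 72.4 to 81.3 CPM in CDD brains and 64.1 to 71.4 CPM in ND brains, and the log2 fold change was 0.15 in edgeR (adjusted p = 0.0693, and 0.0406 without CDD replicate 3). The maternally expressed zinc finger gene *Zim1* was at 31.6, 28.2, 33.0 and 34.5 CPM in CDD brains and at 31.5, 32.1, 36.9 and 33.6 CPM in ND brains, and the log2 fold change was -0.07 in edgeR (adjusted p = 0.565).

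In the cluster of chromosome 6 around *Peg10*, *Peg10* and *Asb4* were higher in CDD brains. *Sgce*, or epsilon-sarcoglycan, which starts beside *Peg10* and is also paternally expressed, had a log2 fold change of -0.08, with 23.7 to 27.4 CPM in CDD brains and 26.2 to 28.1 CPM in ND brains (adjusted p = 0.496 in edgeR). *Calcr*, the calcitonin receptor, had a log2 fold change of 0.18 and *Ppp1r9a*, the actin-binding neurabin, of -0.01 (adjusted p = 0.340 and 0.902 in edgeR).

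At *Igf2* and *H19* on chromosome 7, which share enhancers and one control region, both genes were lower on average in CDD brains and neither passed the test. *Igf2*, the fetal growth factor, was at 13.6, 11.9, 9.97 and 11.1 CPM in CDD brains and at 14.7, 11.2, 16.1 and 14.2 CPM in ND brains, and the log2 fold change was -0.28 in edgeR (adjusted p = 0.122, and 0.0290 without ND replicate 2). The noncoding RNA *H19* was at 187, 178, 150.2 and 145.5 CPM in CDD brains and at 187, 161, 183 and 191.5 CPM in ND brains, and the log2 fold change was -0.13 in edgeR (adjusted p = 0.391). Both genes are known from the meninges and other mesenchyme, whose summed markers lay at 470 to 523 CPM in CDD and 499.5 to 601 CPM in ND brains. The part of these cells was not tested.

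At *Igf2r* and *Airn* on chromosome 17, the receptor that clears IGF2 was at 122, 107, 126 and 120.4 CPM in CDD brains and at 105, 118, 108 and 105 CPM in ND brains (log2 fold change 0.13, adjusted p = 0.135 in edgeR, and 0.0354 without CDD replicate 2). *Airn*, the noncoding RNA that silences *Igf2r* on the paternal copy, was at 3.50, 3.54, 3.30 and 2.68 CPM in CDD brains and at 3.25, 4.28, 2.95 and 3.68 CPM in ND brains (log2 fold change -0.12, adjusted p = 0.681 in edgeR). The diets overlapped for both. Neurons are known to transcribe *Igf2r* from both copies, so its place among the maternally expressed genes may not hold in neurons of these brains. The same limit applies to its ratio over *Airn*. The signal peptide peptidase gene *H13* was at 205.5, 209, 211 and 200.4 CPM in CDD brains and at 212, 218, 214 and 207 CPM in ND brains. *Mcts2*, a retrocopy inside *H13*, was at 10.7, 11.3, 11.3 and 11.5 CPM in CDD brains and at 12.6, 10.7, 12.03 and 11.7 CPM in ND brains. Their log2 fold changes were -0.04 and -0.07 (adjusted p = 0.577 and 0.628 in edgeR). *Commd1*, a gene of copper and NF-kappaB regulation, was at 9.27, 8.84, 8.18 and 7.90 CPM in CDD brains and at 6.87, 8.66, 7.29 and 7.77 CPM in ND brains. *Zrsr1*, a splicing factor retrocopy inside *Commd1*, was at 14.8, 18.0, 16.4 and 16.9 CPM in CDD brains and at 17.0, 16.7, 18.4 and 17.7 CPM in ND brains. Their log2 fold changes were 0.16 and -0.08 (adjusted p = 0.333 and 0.561 in edgeR). Reads of a retrocopy can also stem from its parent gene, which leaves the levels of *Mcts2* and *Zrsr1* uncertain.

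The remaining imprinted genes did not pass the test. *Nnat*, the neuronal membrane protein neuronatin, ranged over 2248 to 2399 CPM in CDD brains and 2258 to 2326 CPM in ND brains, and the log2 fold change was 0.01, and *Blcap*, in whose intron *Nnat* lies on the opposite strand, had one of -0.02. The log2 fold change was 0.18 for the zinc finger gene *Zdbf2* (adjusted p = 0.442 in edgeR), and it was 0.27 without CDD replicate 3 (adjusted p = 0.0430 in edgeR) and 0.05 without CDD replicate 4. It was 0.04 for the translation regulator *Impact*, -0.02 for the noncoding *Peg13*, -0.04 for the phosphoinositide phosphatase gene *Inpp5f* and -0.09 for *Gnas*, which encodes the stimulatory G protein alpha subunit. A few genes were barely expressed. *Slc22a18*, a transporter gene, was at 0.231 to 0.543 CPM and the antisense RNA *Nespas* at 0.406 to 1.19 CPM over the 8 brains, with intervals of the log2 fold change from -0.74 to 0.79 and from -0.78 to 0.50. *Phlda2*, a growth-restraining gene of the placenta, had 0 to 8 counts per brain, so a difference was not detectable at this depth.

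Reads of overlapping genes limit these values. Of the 43 genes, 27 overlap another gene of the table and 19 overlap one on the opposite strand, among them *Nnat* with *Blcap*, *Igf2r* with *Airn*, *Commd1* with *Zrsr1* and *Gnas* with *Nespas*.

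A maternally and a paternally expressed gene of one domain were then set against each other within each brain, as the log2 ratio of their CPM. Such a ratio hardly depends on the scaling of the library. For *Meg3* over *Dlk1* it was 4.70, 4.68, 4.80 and 4.43 in CDD brains and 5.04, 4.89, 5.21 and 5.15 in ND brains. Every CDD brain was lower, by a mean of -0.42 (pooled SD 0.150). The exact two-sided permutation test gave p = 0.0286, the smallest that 4 against 4 brains allow, and 0.229 after adjustment over the 8 pairs tested.

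The other ratios did not pass this test either. The difference of CDD from ND was -0.23 for *Zim1* over *Peg3* (exact permutation p = 0.0571), 0.27 for *Ube3a* over *Snrpn* (exact permutation p = 0.0857) and 0.24 for *Commd1* over *Zrsr1* (exact permutation p = 0.114). It was 0.13 for *H19* over *Igf2* and 0.24 for *Igf2r* over *Airn* (exact permutation p = 0.171 each), -0.02 for *Asb4* over *Peg10* (exact permutation p = 0.714) and 0.03 for *H13* over *Mcts2* (exact permutation p = 0.771). With 1 brain left out, the difference ranged over 0.13 (without CDD replicate 4) to 0.35 for *Ube3a* over *Snrpn*, 0.15 (without CDD replicate 1) to 0.32 for *Commd1* over *Zrsr1*, 0.14 (without CDD replicate 4) to 0.33 for *Igf2r* over *Airn* and 0.07 (without ND replicate 3) to 0.18 for *H19* over *Igf2*, and over -0.28 to -0.18 for *Zim1* over *Peg3*. After adjustment the first 5 of these ratios stood at 0.229 and the other 2 at 0.771. *Phlda2* over *Kcnq1ot1* was not tested because of the low counts of *Phlda2*. The balance of maternal over paternal genes was lower in CDD brains in some domains and higher in others, without a difference past the threshold, and with 4 brains per diet 1 pair alone cannot pass the adjustment over 8.

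**Figure D4:**
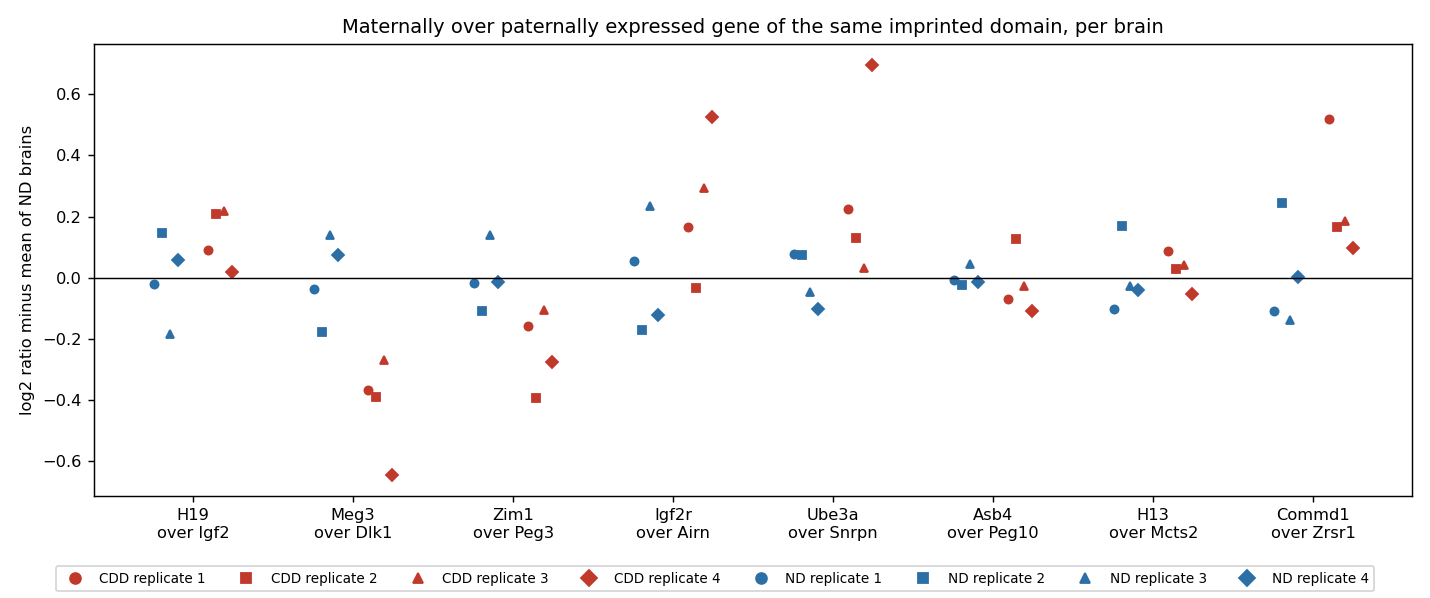
Log2 ratio of the CPM of a maternally over a paternally expressed gene, minus the mean of the 4 ND brains, on the vertical axis for 8 pairs, with 1 symbol per brain (ND blue, CDD red, shape for the replicate number). The diets separate for *Meg3* over *Dlk1*, and CDD replicate 4 is the highest brain for *Igf2r* over *Airn* and for *Ube3a* over *Snrpn*.

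As a description of each class, log2 CPM was centred on each gene's mean over the 8 brains and averaged over the class. The 24 paternally expressed genes averaged 0.036, 0.014, -0.016 and 0.036 in CDD replicates 1 to 4 and -0.016, -0.056, -0.025 and 0.027 in the ND brains. The means differed by 0.035, where the pooled SD between brains was 0.0296. The 12 maternally expressed genes averaged 0.081, 0.056, -0.041 and -0.095 in CDD brains and -0.012, 0.018, -0.034 and 0.027 in ND brains, a difference of 0.00042 (pooled SD 0.0617). Both classes overlapped between the diets, and the maternal class spread more widely among CDD brains than among ND brains. Maternal minus paternal differed by -0.034 (pooled SD 0.0642), less than the spread between brains, and by 0.0035 without CDD replicate 4.

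**Figure D5:**
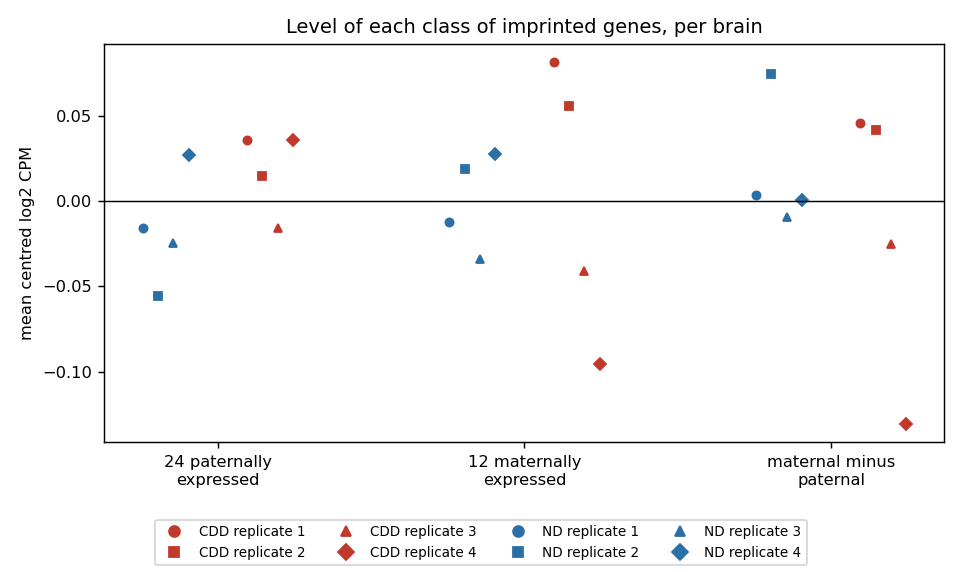
Mean centred log2 CPM (vertical axis) of the 24 paternally and the 12 maternally expressed genes tested, and their difference, with 1 symbol per brain (ND blue, CDD red, shape for the replicate number). The diets overlap in all 3 columns, and CDD replicate 4 is lowest for the maternal class and for the difference.

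Per transcript length, in the authors' FPKM, the imprinted genes spanned a wide range of levels. *Nnat* was highest at 1261 ± 39.6 in CDD and 1244 ± 17.0 in ND brains (SD, n = 4 each), far above *Ndn* at 165 ± 8.38 and 136 ± 31.5, *Meg3* at 116 ± 9.98 and 134 ± 5.50, *H19* at 62.6 ± 7.43 and 68.4 ± 5.11 and *Snrpn* at 58.4 ± 5.49 and 61.9 ± 1.55. The diet means of *Ndn* differed by less than its SD in ND brains, and those of *H19* and *Snrpn* by less than their SD in CDD brains. Those of *Meg3* differed by more than its SD in either diet, and *Meg3* was past the threshold in edgeR. Among the genes past the threshold, FPKM in ND brains was 37.2 ± 0.703 for *Mest*, 34.0 ± 0.688 for *Peg10*, 23.98 ± 1.31 for *Grb10*, 15.9 ± 0.537 for *Plagl1*, 13.5 ± 0.786 for *Dlk1*, 5.21 ± 0.412 for *Peg12*, 4.78 ± 0.108 for *Asb4*, 1.54 ± 0.184 for *Rasgrf1* and 0.291 ± 0.00498 for *Kcnq1ot1*. The lowest places were taken by *Nespas*, *Slc22a18* and *Phlda2*. Brains of the same diet were close in these genes, with a median coefficient of variation of 6.65% over the 42 tested, against 8.46% over all genes. These medians were not matched for abundance. A mean of 5 CPM was reached by 38 of the 42 and by 12333 of all 19367 genes.

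Other imprinted genes, which are not on the list of 43, were counted beside them. Of 38 such genes, 37 were found, 31 were tested, 0 were higher and 2 were lower in CDD brains in edgeR. These 2 are 6.45% of the genes tested, near the 8.83% of all genes. The median log2 fold change was -0.03, and 11 genes had an unadjusted p-value under 0.05, where the share over all genes was 23.9%. DESeq2 called 1 of them higher, and limma-voom called 0 of them higher. Both lower genes were also past the threshold in limma-voom, with adjusted p-values of 0.0106 for *Begain* and 0.0370 for *Nap1l5*. *Begain*, a postsynaptic scaffold gene next to *Dlk1*, fell by 0.34 on the log2 scale, from 85.0 to 92.9 CPM in ND to 59.1 to 76.3 CPM in CDD brains (SE 0.0670, adjusted p = 0.00732 in edgeR). *Nap1l5*, a paternally expressed nucleosome assembly gene, fell by 0.26 (SE 0.0712, adjusted p = 0.0335 in edgeR), from 60.0 to 67.5 CPM in ND to 45.8 to 61.6 CPM in CDD brains. The call of *Nap1l5* was lost without CDD replicate 1 or 3 or ND replicate 1, 3 or 4, with adjusted p-values of 0.0508 to 0.111.

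Of 24 genes known to set or keep imprints, 21 were found and tested, 4 were past the threshold as higher in CDD and 0 as lower in edgeR, where 4.24% and 4.59% of all genes were. The median log2 fold change was 0.07, and 8 genes had an unadjusted p-value under 0.05, where 23.9% of all genes had one. *Uhrf1*, which brings the maintenance methyltransferase to newly copied DNA, was at 90.1, 77.2, 82.8 and 87.3 CPM in CDD brains and at 63.9, 76.7, 65.3 and 62.7 CPM in ND brains. It was higher in CDD by 0.33 (SE 0.0624, adjusted p = 0.00470 in edgeR) and kept its call with any brain left out. *Cbx5*, a heterochromatin protein, was higher by 0.25 (adjusted p = 0.0153 in edgeR), *Arid4b*, a partner in imprint control, by 0.20 (adjusted p = 0.0271 in edgeR), and the histone-binding *Rbbp4* by 0.15 (adjusted p = 0.0458 in edgeR). The adjusted p-value of *Rbbp4* in edgeR was 0.0506 with RLE normalization, 0.0518 with upper-quartile normalization and 0.0509 with no filter on low counts. Of the 4, 2 were past the threshold without CDD replicate 2 or ND replicate 2, and 1 without ND replicate 1, 3 or 4. *Dnmt1*, which copies the methylation, *Zfp57* and *Zfp445*, whose proteins bind it, and *Trim28*, their corepressor, had log2 fold changes of 0.07, -0.12, -0.02 and 0.11 (adjusted p = 0.390, 0.322, 0.818 and 0.143 in edgeR). *Uhrf1* is also a gene of dividing cells, whose progenitor markers summed to 1403 to 1545 CPM in CDD and 1252 to 1344 CPM in ND brains, and the part of these cells was not tested.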

How the data were processed

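Deposited by the authors were raw read counts of each gene in each brain, and FPKM values made from size-factor-normalized signal and gene length. The submitters' processing notes name HISAT2 2.0.5, featureCounts 1.5.0-p3 and DESeq2 1.20.0, and the build, annotation and strand setting of the counting are not given in the sources used here. Their normalized signal, diet means, fold changes and p-values, and 3 shorter lists selected by them, were not used. All 8 brains were grouped by the diet in their labels, and no batch was named.

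The fit in edgeR 4.0.16 used filterByExpr, TMM scaling and robust quasi-likelihood dispersions, with maternal diet as its only term (adjusted p under 0.05, Benjamini-Hochberg over all genes tested). CPM refers to TMM-scaled libraries, SE is the absolute log2 fold change over the square root of F, and log2 CPM of ratios and class levels used a prior count of 2. Between 31770217 and 43121170 counts per brain limit the precision of genes with few reads.

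The members and gene lists were chosen with earlier results of these data known. Every listed gene was accounted for, with values per brain for genes past the threshold and for both genes of a tested pair. The values of *Ndn* by brain, of marker genes, and of imprint genes that did not pass the test were added after they were seen. Other imprinted genes and genes that keep imprints were named where they passed the threshold, at most 5 per list.

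Alternatives were DESeq2 1.42.0, limma-voom (limma 3.58.1), RLE and upper-quartile normalization, no filter, a minimum of 10 counts per brain, a block for the replicate number, FPKM on the log2 scale with a pseudocount of 1, the 6 dependent genes assigned to a parental class, a prior count of 0.5 and each brain left out. *Xist* as a covariate was added after the data were seen. R 4.3.3, Python 3.11.15, pandas 2.3.3 and matplotlib 3.10.9 were used.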

Additional observations from a re-analysis of the deposited data

Results flagged for a closer look

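In groups of 4 brains, 3 of the 84 combinations of a tested imprinted gene and a diet had 1 brain far from the other 3 by Dixon's test, where chance gives about 4.2. *Dlk1* was lowest in CDD replicate 3, at 84.4 CPM against 89.0 to 89.7 CPM in the other CDD brains, and this value was still above all ND brains. *Meg3* was lowest in CDD replicate 4, at 1930.5 CPM against 2288 to 2357 CPM. *Ppp1r9a* was highest in CDD replicate 4, at 208 CPM against 185 to 187 CPM.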

How the results depend on the processing

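Of the 10 imprinted genes past the threshold, *Mest*, *Peg12*, *Plagl1*, *Grb10* and *Rasgrf1* were past it in every alternative fit run. With FPKM the other 5 had adjusted p-values of 0.0534 for *Peg10* to 0.339 for *Kcnq1ot1*, and on this scale, where the pseudocount of 1 shrinks differences of low genes, the log2 fold changes of *Rasgrf1* and *Kcnq1ot1* were -0.39 and 0.06. With limma-voom *Kcnq1ot1* and *Asb4* had adjusted p-values of 0.0522 and 0.0574. The number of imprinted genes past it was 16 with no filter, 5 with FPKM in limma, and 6 to 13 with a brain left out (6 without ND replicate 3 or 4), and the cause was not tested. Paternally expressed genes past it numbered 4 with FPKM and 5 to 10 with a brain left out. Maternally expressed genes numbered 5 with no filter, 0 with FPKM, 1 with limma-voom, with the replicate block and with *Xist* as a covariate, and 0 to 2 with a brain left out. The other imprinted genes numbered 0 with FPKM, 1 with the *Xist* covariate and 1 to 3 with a brain left out, with medians of -0.0771 to 0.0029. The genes that keep imprints numbered 1 with FPKM and 1 to 5 with a brain left out. Over all genes, 390 passed with FPKM against 1710, and 471 to 2495 with a brain left out, with 688, 471 and 615 without ND replicates 1, 3 and 4.

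Signs turned for values near 0. The log2 fold change of *Slc22a18* was -0.00513 with the *Xist* covariate, and with a brain left out it ranged from -0.17 to 0.23. With a brain left out the ranges were -0.10 to 0.0226 for *Rtl1*, -0.0558 to 0.00658 for *Ppp1r9a*, -0.0399 to 0.0606 for *Magel2*, -0.00217 to 0.0298 for *Nnat*, -0.0485 to 0.0129 for *Blcap*, -0.0589 to 0.0207 for *Peg13*, -0.36 to 0.0861 for *Nespas* and -0.0795 to 0.00637 for *Inpp5f*. They were -0.0554 to 0.0035 for the maternal minus the paternal class level, -0.0677 to 0.00997 for *Asb4* over *Peg10* and -0.00796 to 0.0829 for *H13* over *Mcts2*.

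Brains shared only a replicate number between the diets. Same-numbered brains correlated between -0.133 and 0.232 in their deviations from the diet means, over 0.1 for 3 of 4 numbers, and 3 of 4 CDD brains matched their own number best. With the replicate block 10 imprinted genes were past the threshold, with *Peg3* gained and *Asb4* lost, *Rbbp4* also lost its call (adjusted p = 0.0505 in edgeR), and the paired exact test of ratios allows no p under 0.125. With a brain left out the exact test allows no p under 0.0571, so those ratios are given without a test.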
